A study of Mus musculus with 2 samples.

Results

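Reads of small nucleolar RNAs (snoRNAs) and of their relatives in the Cajal body (scaRNAs) were compared in resident macrophages of the mouse kidney sorted with CD11c (R2a) or without it (R2b). The genes were the rows whose mouse symbol begins with Snora, Snord or Scarna and whose reads in both libraries together came to 20 or more. They were thus selected on symbol and on summed reads. These were 18 of 150 such rows and of 48795 gene rows in all, with 11 Snord, 5 Snora and 2 Scarna genes. Since the summed reads chose the genes, their abundance is a description and not a finding.

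Both groups were untreated wild-type C57BL/6 mice aged 8 weeks, and the sort on CD11c separated them. Each group was 1 library made from the pooled RNA of 6 to 8 animals, so no difference has a replicate check, no p-value is given, and every interval covers counting error only. In bulk RNA, fewer cells of a type and less RNA per cell cannot be told apart. The R2b library held 23915896 reads on genes, 2.02 times the 11811923 of R2a, and its values have less counting error. The sort marker transcript Itgax was high in R2a, at 367 CPM, and low in R2b, at 48.9 CPM, where CPM is the count relative to the scaled library total. All 8 macrophage markers were measured, with log2 ratios from -0.42 to 0.38, of which 7 lay below 0. The interval was below 1 in 5 of them and above 1 in 1, Ptprc. Over all genes with 20 or more reads those shares were 18.0% and 16.8%, but the markers had at least 2007 reads and thus narrow intervals. Of the 8, 0 passed the call rule, beside 3.77% over all genes compared, which says little for so few genes. Reads of proximal tubule cells were present in both libraries, with 7 markers summing to 2107 CPM in R2a and 2253 CPM in R2b. Summed levels in R2a and R2b were 125 and 157 CPM for 4 T cell markers. Nearly all of that sum came from Cd4, at 124 and 154 CPM. Cd3e was at 0.330 and 1.46 CPM, Cd8a at 0.741 and 1.12 CPM and Cd3g at 0.0824 and 0.215 CPM. For 3 B cell markers the sums were 0.824 and 2.66 CPM, and for 3 erythroid markers 4.53 and 6.19 CPM. For 3 endothelial markers they were 39.7 and 27.2 CPM, a difference that came mostly from Pecam1 at 22.7 and 11.3 CPM. Among these, Cd3e and Hbb-bs passed the call rule as lower in R2a, while the erythroid Alas2, not called, had a ratio above 1, of 1.68 (1.08 to 2.59). The part of other cells in the snoRNA values was not tested.

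snoRNAs are short RNAs of the nucleolus that pair with ribosomal RNA and mark the base to be modified. The box C/D family (Snord genes) directs methylation of the ribose, carried out by the enzyme fibrillarin, and the box H/ACA family (Snora genes) directs the change of uridine to pseudouridine, carried out by dyskerin. scaRNAs carry the same boxes and direct the modification of spliceosomal small nuclear RNAs in the Cajal body. In mammals most are cut out of introns of other genes, called host genes, many of which encode ribosomal or translation proteins. A few have their own transcription unit. The supply of mature snoRNA therefore depends on transcription of the host, on splicing and on the protein shell that protects the RNA.

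The sequences shown are the last 100 bases of Scarna2, which held most of the reads, and those of the 7 RNAs, in full, whose interval lay below a ratio of 1, ordered by their ratio from the lowest. They are DNA letters of the transcribed strand from the GENCODE annotation of GRCm38, written 5′ to 3′. Capitals mark NTGATGA (the box C letters, first match) and CTGA in the last 20 bases (box D) in Scarna2 and the Snord genes, and ACA in the last 10 bases in the Snora genes.
Scarna2 (chr3:108554338-108554437, minus strand): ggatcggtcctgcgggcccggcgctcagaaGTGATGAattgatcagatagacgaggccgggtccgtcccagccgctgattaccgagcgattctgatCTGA
Snora31 (chr14:75847905-75848034, plus strand): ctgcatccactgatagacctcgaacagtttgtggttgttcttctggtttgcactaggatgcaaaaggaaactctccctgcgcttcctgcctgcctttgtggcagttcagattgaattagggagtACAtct
Snord43 (chr15:80082847-80082954, minus strand): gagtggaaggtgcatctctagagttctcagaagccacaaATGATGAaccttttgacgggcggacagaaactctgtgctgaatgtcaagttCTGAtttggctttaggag
Snord118 (chr11:69073427-69073561, plus strand): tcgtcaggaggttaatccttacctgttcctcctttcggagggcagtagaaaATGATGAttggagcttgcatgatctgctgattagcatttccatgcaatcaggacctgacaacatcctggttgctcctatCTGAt
Snora17 (chr2:26639190-26639321, minus strand): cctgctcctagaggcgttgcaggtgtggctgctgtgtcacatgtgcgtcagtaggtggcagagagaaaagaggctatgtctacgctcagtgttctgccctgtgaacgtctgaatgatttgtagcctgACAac
Snord70 (chr1:59691934-59692020, plus strand): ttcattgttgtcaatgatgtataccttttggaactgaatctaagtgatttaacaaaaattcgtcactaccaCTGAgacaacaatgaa
Snord71 (chr8:109839295-109839379, plus strand): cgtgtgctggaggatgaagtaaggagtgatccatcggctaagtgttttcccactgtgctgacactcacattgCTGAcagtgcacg
Snord17 (chr2:144265979-144266216, minus strand): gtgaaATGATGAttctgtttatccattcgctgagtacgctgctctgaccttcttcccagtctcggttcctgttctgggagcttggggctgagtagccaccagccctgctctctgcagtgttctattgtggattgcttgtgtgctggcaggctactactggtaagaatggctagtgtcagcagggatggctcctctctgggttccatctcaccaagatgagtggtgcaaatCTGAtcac

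The boxes were searched on the transcribed strand alone. NTGATGA was found in 8 of the 11 Snord genes, and in 73 of all 99 Snord rows. CTGA near the 3′ end was found in 10 of the 11 and in 97 of the 99, and ACA near the 3′ end in 5 of 5 Snora genes and in 40 of all 42 Snora rows. The letters in Snord70 and Snord71 did not hold NTGATGA, which says only that this exact string is not in the annotated span. In Snord43 the annotated span runs 14 bases past box D, and the annotation classes this row as a miRNA. A near copy in an annotated transcript elsewhere, of 90% identity or more over at least 80% of the RNA, was found for 3 of the 18. These were Snord118 with 1 copy, Snora30 with 1 and Snora17 with 2, each of these 2 annotated as a pair of overlapping gene models, and 0 reads were assigned to any of the copies. Reads with several alignments are set aside by a counter of unique hits, so counts of these 3 RNAs may be incomplete.

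Scarna2 (ENSMUSG00000088185.1), which in human cells guides methylation of the U2 spliceosomal RNA, was the most abundant of the 18. It had 4031 reads in R2a and 6625 in R2b, or 332 and 285 CPM. It made up 79.0% of the reads of the 18 genes in R2a and 72.8% in R2b. Its level was 1.17-fold higher in R2a (1.12 to 1.21), the one interval of the 18 that lay above 1. It is held in no annotated gene, on chromosome 3. Per length of the annotated RNA it was also first, at 802 RPKM (CPM per kilobase) in R2a and 688 RPKM in R2b.

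Snord17, an unusually long box C/D RNA of 238 bases in an intron of the sorting nexin gene Snx5, came second. It had 774 reads in R2a and 1765 in R2b, or 63.8 and 75.8 CPM. Here R2a was the lower library, with a ratio of 0.841 (0.772 to 0.915). The host gene Snx5 went the other way, at 520 and 476 CPM and a ratio of 1.09 (1.06 to 1.13). In both libraries Snord17 was second per length as well, at 268 RPKM in R2a and 319 RPKM in R2b.

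Only 2 other genes had more than 100 reads. Scarna6 (chromosome 1, 87784556 to 87784820), in an intron of the autophagy gene Atg16l1, had 82 reads (R2a) and 123 reads (R2b), giving a ratio of 1.28 (0.955 to 1.70). Snora28 (chromosome 12, 111540941 to 111541067), an H/ACA guide inside the initiation factor gene Eif5, had 68 and 111, giving a ratio of 1.17 (0.855 to 1.60). Both intervals include 1, so a difference was not detectable at this depth. The other 14 genes had 20 to 67 reads each, and their levels lay between 0.330 and 2.41 CPM.

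**Figure D1:**
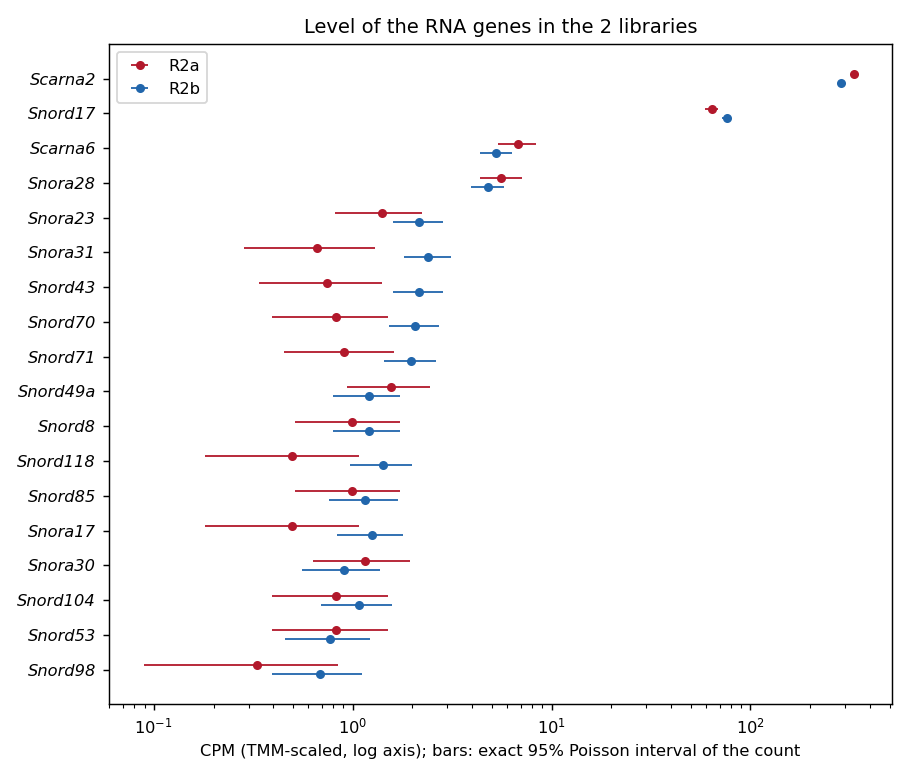
Level of each of the 18 genes in R2a (red) and R2b (blue) in CPM on a log axis, ordered by reads, with exact 95% Poisson intervals of the count. Scarna2 at 332 and 285 CPM and Snord17 at 63.8 and 75.8 CPM stand far above the others, and the blue point lies to the right of the red one for 12 of the 18 genes.

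A gene was called lower or higher in R2a when the log2 ratio of CPM plus 0.5 was at least 1 in size, the library with more of it had at least 1 CPM and the interval left out 1. Of the 18 genes, 16 passed the CPM minimum, and Snord53 and Snord98 did not. Of the 16, 2 were lower and 0 higher in R2a. The count lower was 0 with an added value of 2 CPM, a CPM minimum of 5 or a 4-fold rule, and 6 with an added value of 0.1 CPM, a 1.5-fold rule or R2b thinned to the total of R2a. Over all 15603 genes compared, 1.84% were lower and 1.93% higher, and 3.77% were called in either direction. Genes with few reads are called more often, and among compared genes with 20 to 100 reads 5.21% were lower and 5.65% higher, beside 2 and 0 of 12 snoRNAs with as many reads. Most of the 16 reached the minimum through R2b alone, among them Snora31 and Snord43, the 2 called lower. Snora30 reached it through R2a alone. The counts of calls thus describe the genes and are no support for a direction.

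Snora31 (ENSMUSG00000065147.1), an H/ACA guide for ribosomal RNA in an intron of Tpt1, had the lowest ratio. It had 8 reads in R2a and 56 in R2b, or 0.659 and 2.41 CPM, and was 3.65 times lower in R2a (1.73 to 8.87), with a log2 ratio of -1.33. Tpt1, which encodes the translationally controlled tumour protein, stood at 681 and 815 CPM, a log2 ratio of -0.26. The RNA and its host were thus both lower in R2a, by different amounts.

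Snord43 (ENSMUSG00000105167.1), a guide for the small-subunit ribosomal RNA in an intron of Rpl3, was the other called gene. It had 9 reads in R2a and 50 in R2b, or 0.741 and 2.15 CPM, and was 2.90 times lower in R2a (1.41 to 6.70), with a log2 ratio of -1.09. Rpl3, a protein of the large ribosomal subunit, was at 261 and 259 CPM, a ratio of 1.01 (0.965 to 1.05). Another row in Rpl3, Snord83b, had 2 reads in R2a and 0 in R2b.

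For 4 further genes under 100 reads the interval lay below 1 while the log2 ratio did not reach the rule. Snord70, in an intron of Nop58, counted 10 against 48 reads, R2a first, and was 2.50 times lower (1.25 to 5.55), with a log2 ratio of -0.95. Its host encodes a core protein of every box C/D particle and had a ratio of 0.680 (0.606 to 0.763), the lowest among the hosts. Snord11, in the same host, had 3 and 12 reads, and its interval, 0.0868 to 1.78, includes 1.

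Snord118, the U8 RNA needed for maturation of the large-subunit ribosomal RNA, counted 6 against 33 reads and was 2.87 times lower (1.19 to 8.38). It lies in no annotated gene span. Snora17 had 6 and 29 reads and was 2.52 times lower (1.03 to 7.43). Snord71, in an intron of the clathrin adaptor gene Ap1g1, had 11 and 46 reads and was 2.18 times lower (1.11 to 4.67), beside a host ratio of 0.980 (0.918 to 1.05).

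The remaining genes had intervals that include 1. Snora23, in an intron of the nuclear import gene Ipo7, counted 17 against 50 reads, which gives a ratio of 0.652 (0.352 to 1.15). Snord98 had 4 and 16 reads, a ratio of 0.479 (0.117 to 1.49). Snord104 had 10 and 25 reads, Snord8 had 12 and 28, and Snord85 had 12 and 27, with ratios between 0.767 and 0.852. Points above 1 came from Snord49a with 19 and 28 reads, Snora30 with 14 and 21 and Snord53 with 10 and 18. In these 8 genes no difference was detectable at this depth. The hosts of 4 of them had log2 ratios near 0, at 0.09 for the chromatin remodeller Chd8 (Snord8), 0.11 for the noncoding 2410006H16Rik (Snord49a), 0.03 for the remodeller Srcap (Snora30) and 0.15 for the processome gene Wdr43 (Snord53).

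**Figure D2:**
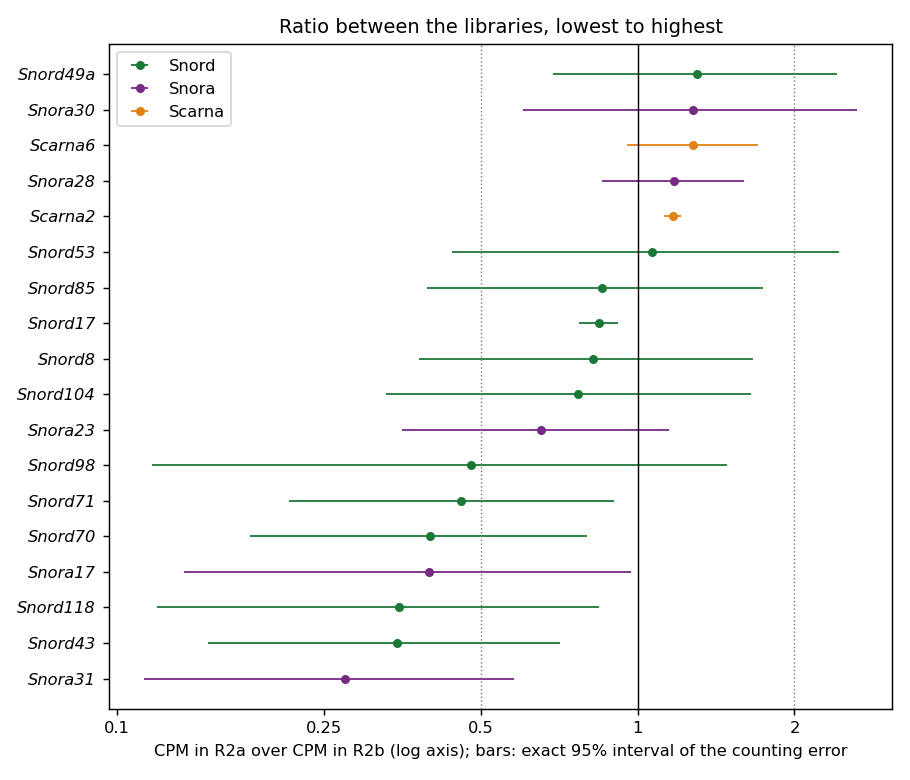
Ratio of CPM in R2a over R2b for the 18 genes, lowest at the bottom, on a log axis with exact 95% intervals of the counting error, coloured by family; dotted lines mark 0.5 and 2. In 7 genes the whole interval lies below 1, and in 1 gene, Scarna2, above it.

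Across the 18 genes 12 ratios were below 1 and 6 above. The median log2 ratio was -0.25, with quartiles at -0.82 and 0.17. Over all genes with 20 or more reads, the rule on reads that chose the snoRNAs, the median was -0.01, with quartiles at -0.21 and 0.19, and 51.4% had a log2 ratio below 0. The interval lay below 1 in 7 of the 18 and above 1 in 1. Over all 16703 genes with 20 or more reads those shares were 18.0% and 16.8%.

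Depth separates the 18 genes into unequal parts. In the 14 genes with 20 to 100 reads the median log2 ratio was -0.50, 11 lay below 0, and the interval was below 1 in 6 and above 1 in 0. Over all 4486 genes with as many reads the median was -0.02, 50.9% lay below 0, and the shares of intervals below and above 1 were 11.2% and 11.5%. The 4 genes with more reads had a median of 0.22, and 3 lay above 0. A CPM minimum of 5 leaves these same 4 genes, so its median of 0.22, against -0.25 over the 18, is the same result. Added together, the 14 genes with fewer reads counted 148 against 475 reads, R2a first, and the ratio was 0.597 (0.493 to 0.720). All 14 passed the rule of 20 reads only with those of the deeper R2b library. This ratio thus describes them and is no support for a direction. The summed level of all 18 genes was 420 CPM against 391 CPM, R2a first, and the ratio was 1.08 (1.04 to 1.11). That sum is carried by Scarna2: without it the levels were 88.3 and 106 CPM and the ratio 0.831 (0.773 to 0.893).

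**Figure D3:**
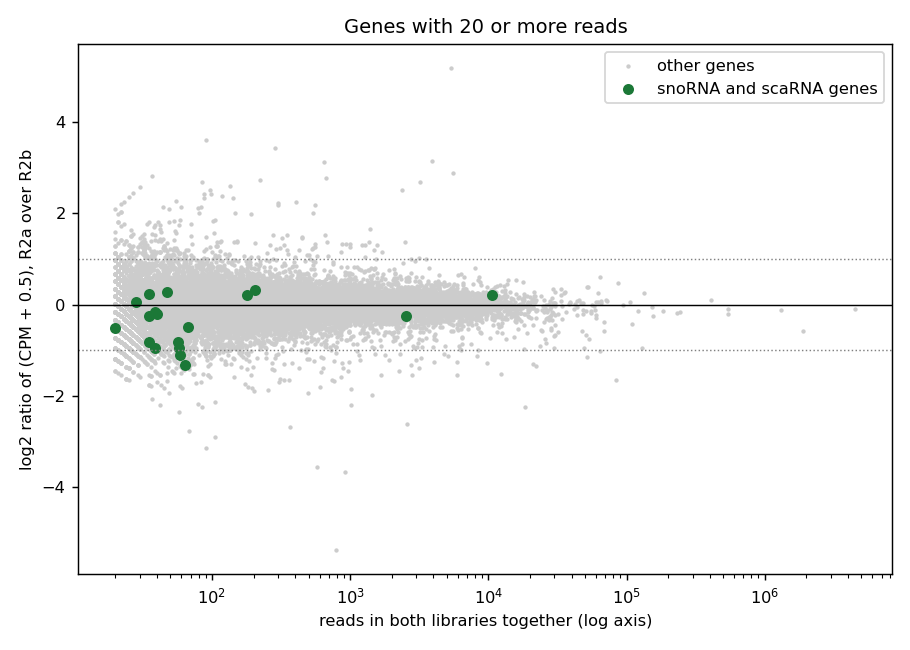
Log2 ratio of CPM plus 0.5 in R2a over R2b against the reads in both libraries together (log axis) for the 16703 genes with 20 or more reads; the 18 snoRNA and scaRNA genes are green, and dotted lines mark a log2 ratio of 1 and -1. Most green points sit at the left, at 20 to 67 reads, with 11 of those 14 below 0, inside the spread of the other genes.

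By family, the 11 Snord genes had a median log2 ratio of -0.25 and 9 below 0, and their summed ratio was 0.807 (0.745 to 0.873). Without Snord17 the summed ratio of the other 10 was 0.619 (0.491 to 0.775). These 10 also passed the rule on reads only with those of R2b, so the ratio is no support for a direction. The 5 Snora genes had a median of -0.48 and a summed ratio of 0.811 (0.645 to 1.01), an interval that includes 1. The 2 Scarna genes had log2 ratios of 0.22 and 0.33. The difference between families was not tested, and family goes with length and depth here: annotated lengths were 265 and 414 bases for the Scarna genes, 127 to 184 for the Snora genes and 65 to 238 for the Snord genes.

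The 3 genes over 200 bases, Scarna2, Scarna6 and Snord17, held 95.8% of the reads of the 18 in R2a and 93.6% in R2b. The 15 shorter ones had 216 and 586 reads, a summed ratio of 0.707 (0.602 to 0.827). All of these but Snora28 passed the rule on reads only with those of R2b, so the ratio is no support for a direction. For comparison, the 427 other genes of 300 bases or less with 20 or more reads had a median log2 ratio of -0.02. Of the 290 of them over the CPM minimum 22 (7.59%) were higher and 9 (3.10%) lower, beside 1.93% and 1.84% over all genes compared.

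Of the 18 genes, 14 lie within 15 annotated genes of the same strand, 14 of which are protein-coding, and Snora30 lies within both Srcap and the gene model Gm42715. Scarna2, Snord118, Snora17 and Snord104 lie within none. The host genes had a median log2 ratio of 0.01, a range from -0.55 to 0.40, and 0 of 15 were called. Over all genes compared 3.77% were called, so 0 calls among so few genes say little about the hosts. Taking for each RNA the host with the most reads, the ratio of the RNA was below that of its host in 10 of 14, with a median difference of -0.33 on the log2 scale. Only the intervals of Snord17, Snora31, Snord43 and Snord71 left out the ratio of the host. The widest gaps were those of Snord43 in Rpl3, Snora31 in Tpt1 and Snord98 in Ccar1. Ccar1, a regulator of cell cycle and apoptosis, had a log2 ratio of 0.40 and Snord98 -0.52. The interval of Snord98, 0.117 to 1.49, includes the Ccar1 ratio of 1.32. The added 0.5 CPM draws the log2 ratios of RNAs with few reads towards 0 more than those of their hosts, so the order of the gaps depends on it.

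**Figure D4:**
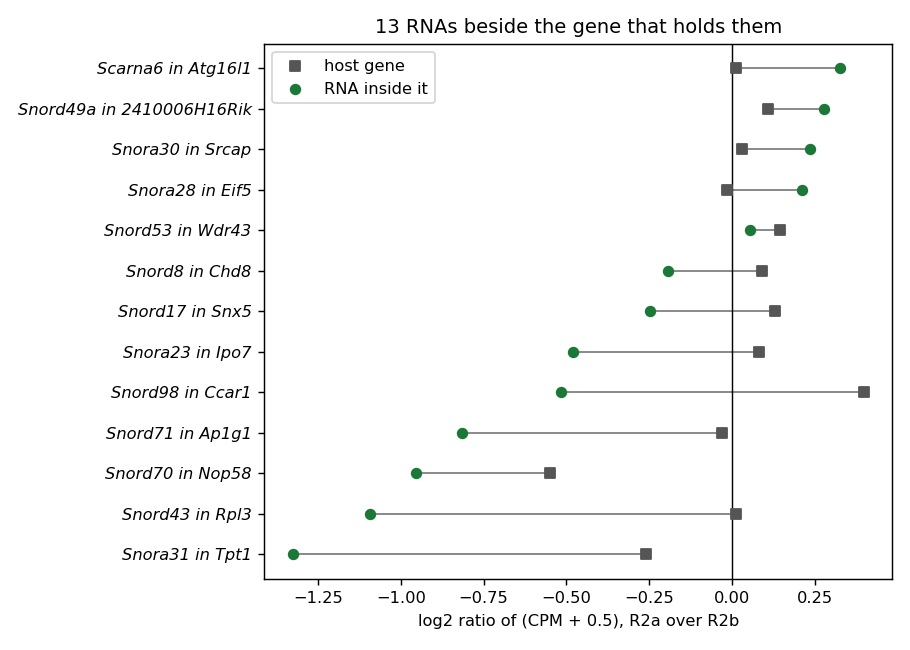
Log2 ratio of CPM plus 0.5 in R2a over R2b for 13 of the 14 snoRNA or scaRNA genes within a host (green circles) and for the gene that holds each of them (grey squares). The squares stay between -0.55 and 0.40, while the circles run from -1.33 to 0.33 and lie left of their square in 9 of 13.

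The threshold of 20 reads fell within a continuous run of low counts. Just inside were Snord98 with 20 reads in the sum, Snord53 with 28, and Snora17, Snora30 and Snord104 with 35 each. Just outside were Snord72 with 2 reads in R2a and 17 in R2b, Snora20 with 7 and 11, and Snord91a with 4 and 14. Below the threshold 45 rows had 1 to 19 reads and 87 had none. These 45 rows together counted 111 against 223 reads, R2a first, and the ratio was 0.954 (0.753 to 1.20), an interval that includes 1. Among the rows with no read were those of Snora73a and Snora73b, RNAs of early ribosomal RNA processing. The floor taken for a row with no read was 3 counts, which is 0.254 CPM of the unscaled total of R2a and 0.125 CPM of R2b. It does not cover reads that a counter sets aside as lying on several genes. Both Snora73a and Snora73b overlap exons of other genes, so it sets no limit on these RNAs.

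The presence of reads went with the overlap of a row with exons of other genes. Of 73 rows whose span overlaps an exon of another gene on the same strand, 16 had a read (21.9%) and 1, Snora28, reached 20. Of 74 rows overlapping no such exon, 47 had a read (63.5%) and 17 reached 20. A further 3 rows overlap an exon on the opposite strand only, and 0 of these had a read. Some rows with no read overlap no exon of another gene, among them Snord116l1 and others of that series within Snhg14. Many other rows with no read overlap exons of Snhg and ribosomal protein genes, as with Snora44 and Snora61 in Snhg12 or Snora73a in Snhg3. Reads on several genes can be set aside in counting, so a row with no read there does not show that the RNA is absent. The annotation used for the overlap is GENCODE M21, and the sources used here do not give the release behind the counts.

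**Figure D5:**
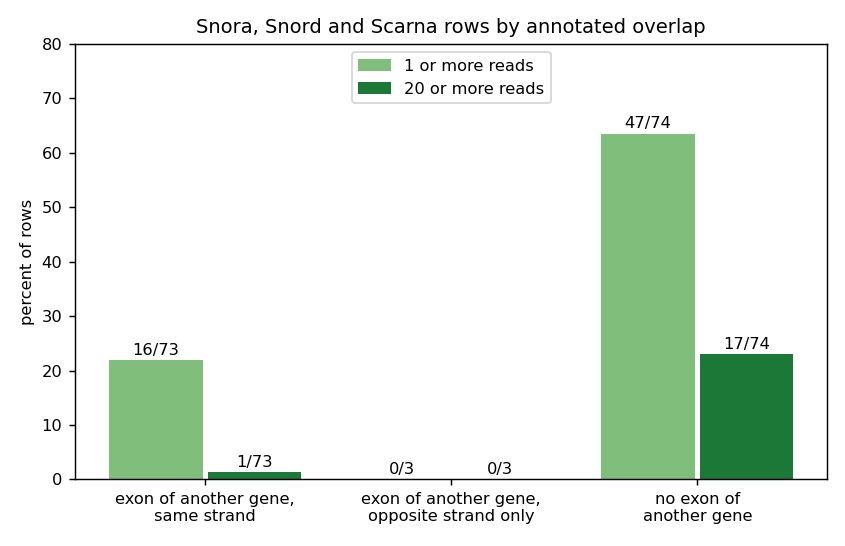
Percent of Snora, Snord and Scarna rows with 1 or more reads (light) and with 20 or more reads (dark) in both libraries together, by whether the row overlaps an exon of another gene; the fractions give the rows. Rows overlapping no exon of another gene had a read in 63.5% and rows overlapping one on the same strand in 21.9%.

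Rows that the annotation types as snoRNA or scaRNA but whose symbols begin otherwise, nearly all gene model names, give a second set of such RNAs. Of 1409 such rows 89 had 20 or more reads, 1 of which, Rnu73b, has a name other than a gene model's and is also listed among the structural small RNAs. The 89 rows were spread about 0, with a median log2 ratio of 0.02, 44 below 0 and 45 above. Of these 89 rows, 3 were called lower and 2 higher among the 56 over the CPM minimum. Over all genes compared 1.84% were lower and 1.93% higher, and with 20 to 100 reads 5.21% and 5.65%. So few calls say little about these rows. The rows of the scaRNA type, with or without a Scarna symbol, were 10 with 20 or more reads. Of these 8 had a log2 ratio above 0, the interval lay above 1 in 5 and below 1 in 0, and the median was 0.43. Over all genes with 20 or more reads the interval lay above 1 in 16.8% and below 1 in 18.0%. The 8 of them that are not among the 18 genes counted 986 against 1338 reads, R2a first, and the ratio was 1.41 (1.30 to 1.54). That sum is carried by Gm25395 with 402 and 567 reads, Gm22009 with 371 and 485 and Gm22442 with 146 and 207. The 81 other rows of the snoRNA type had a summed ratio of 0.914 (0.855 to 0.977). The difference between the types was not tested.

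The protein genes of the snoRNA pathway were compared list by list, and each log2 ratio here is that of CPM plus 0.5, R2a over R2b. With 3.77% called over all genes compared, 0 calls in lists this short say little, here and in the lists below. Of 4 box C/D core protein genes, 0 were called. Nop58 had a log2 ratio of -0.55 at 33.0 and 48.6 CPM, and Fbl, which encodes fibrillarin, 0.43 at 25.7 and 18.9 CPM. Of 4 box H/ACA core protein genes, 0 were called, with Dkc1, which encodes dyskerin, at -0.08 and Nop10 at -0.16. Assembly factor genes had 0 of 9 called and a median of -0.05 over those compared, with the ATPase Ruvbl2 at -0.08 and the H/ACA assembly factor Naf1 at -0.15.

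Cajal body and trafficking genes had 0 of 11 called. Tcof1, which encodes treacle, a nucleolar factor of ribosomal RNA transcription, had the lowest log2 ratio among them, -0.74 at 78.6 and 132 CPM. Ice1, a factor of small nuclear RNA transcription, was at -0.05. Genes of the U3 processome, which assembles on the nascent small-subunit RNA, had 0 of 20 called and a median of -0.03, with Utp20 at 0.01 and Heatr1 at -0.22. Trimming and decay genes had 0 of 19 called and a median of 0.13, with the exonuclease Xrn2 at 0.23 and Zcchc7 at 0.18. Genes of RNA polymerase I and the nucleolus had 0 of 14 called and a median of 0.01, with nucleolin, Ncl, at 0.05 and nucleophosmin, Npm1, at 0.29.

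Noncoding genes listed as snoRNA hosts, with the microRNA host gene Mir22hg among them, had 0 of 15 called and a median of 0.07. Gas5, the most abundant, had a log2 ratio of 0.39 at 18.8 and 14.2 CPM, and Zfas1 had -0.01. The ends of the range, named after their values were seen, were Snhg8 at -0.83 and Epb41l4aos at 0.82. Of 8 other structural small RNA genes over the CPM minimum 1 was higher in R2a. This was Rn7s2, a signal recognition particle RNA gene with near-identical copies, with 13 reads in R2a and 1 in R2b. Rpph1, the RNA of ribonuclease P, held far more reads than any of the 18 genes, at 1388 and 1343 CPM and a log2 ratio of 0.05, and Rprl3 had -0.21.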

How the data were processed

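RNA of sorted kidney macrophages was sequenced in 2 libraries. The authors deposited raw counts of reads for each Ensembl gene. Per the labels, libraries had ribosome reduction and paired ends of 75 bases. Per the submitters' processing notes, the tools were STAR 2.5.3, with GRCm38, and HTSeq 0.9.1. The sources used here do not give the strand setting, count mode or size selection. Reads on several genes are set aside by such counters, which lowers counts of RNAs inside exons, and reads of unspliced host RNA can fall on an intronic snoRNA.

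Gene IDs were matched without version to GENCODE M21 (GRCm38), 48435 of 48795. The counter's summary rows, 52.1% of all reads in R2a and 49.7% in R2b, stayed out. Counts were scaled with TMM (edgeR 4.0.16, R 4.3.3). Ratios have exact 95% Clopper-Pearson intervals (scipy 1.17.1) on the split of reads, which cover counting error only, since PCR copies of 1 molecule cannot be told from separate molecules. No test was possible with 1 library a group. The call rule was checked on simulated counts that held counting error only. Changes were set there in genes with more reads than Snora31 and Snord43, so the check does not show how well changes are called at their depth. Near copies were sought with BLAST 2.17.0. The genes, gene lists and named-gene rule were chosen with earlier results of these data known. The rule names called genes, the most abundant, those beside the threshold, and in each list the called genes and those with the most reads. Other genes named, among them the rest of the 18, Snhg8 and those under 20 reads in a host, were chosen after their values were seen. Alternatives were other scalings (among them DESeq2 1.42.0 size factors), added values, CPM minimums, size rules, a thinned R2b library and other choices of members. The values of 1 host gene are not reported here, and its pair is left out of the plot of host genes.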

Additional observations from a re-analysis of the deposited data

Results flagged for a closer look

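With 1 library a group, no sample had others of its kind to be set against. Outside the gene rows, the counter's summary rows held signal far above 3 counts. Of all reads in the table, 41.2% (R2a) and 38.9% (R2b) lay outside annotated exons. Those on more than 1 gene came to 2.42% (R2a) and 2.51% (R2b), and those with several alignments to 8.50% (R2a) and 8.33% (R2b). How many of these reads came from snoRNAs was not tested.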

How the results depend on the processing

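The 2 genes called lower, Snora31 and Snord43, rest on 8 and 9 reads in R2a, and depth limits every gene of the 18 but Scarna2 and Snord17. Each was called under 8 of 11 alternatives and not with an added value of 2 CPM, a CPM minimum of 5 or a 4-fold rule. Each of these 3 alternatives left 0 genes lower. Both genes lay under 5 CPM, so that minimum could only lose them, while no CPM minimum or a 1.5-fold rule could only keep them. An added value of 0.1 CPM, a 1.5-fold rule and 1 random thinning of R2b to the total of R2a each gave 6 lower, and a library total without technical classes gave 4. In every alternative run 0 were higher. The median log2 ratio of -0.25 was 0.22 over the genes left by a CPM minimum of 5, and otherwise lay between -0.48 and -0.16. The host median of 0.01 was -0.0021 over hosts of genes with 50 or more reads. The summed ratio of 1.08 was 1.14 with total-count scaling, which shifts log2 ratios up by 0.08. It turned to 0.831 without Scarna2 and to 0.806 without Scarna2 and Snord17, both chosen after the data were seen. The cause of the other changes was not tested. No paired analysis was possible because each group has 1 library.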
